A study of Mus musculus with 30 samples.

Results

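The 49 genes described here encode the machinery that copies DNA, together with the cyclins and transcription factors that carry a cell from G1 into S phase. They were given as a list of gene symbols. Each gene was read from the probe set whose platform annotation held its symbol alone, or from the one with the highest mean over the 30 arrays where there were several. All 49 were measured, out of 19937 genes that could be named in a table of 34760 probe sets, and all 49 had a mean above that of the median gene.

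Every array held RNA of 1 mouse lymphoma line or of lines derived from it (genotype Eμ-Myc; Cdkn2a-/-, strain C57BL/6J). In these B cells Myc is driven by the immunoglobulin heavy chain enhancer and the Cdkn2a tumour suppressor locus is deleted, in untreated controls as in treated cells, and all were grown on irradiated Cdkn2a-/- mouse embryonic fibroblasts as feeders. The parental line was arrayed untreated (0 h, n = 5) and after 6 h (n = 4), 12 h (n = 4), 24 h (n = 5) and 48 h (n = 5) in 750 nM mafosfamide, a DNA-alkylating relative of cyclophosphamide that is active on cultured cells. The resistant lines R100, R500, R1000 and R4000 were taken at 100, 500, 1000 and 4000 nM from 1 dose escalation of the parental line, so they are successive samples of 1 selection. Each was arrayed once untreated, and R500, R1000 and R4000 once more after 24 h in 750 nM mafosfamide. The arrays of a parental time are titled biological replicates without a statement that the cultures were separate, so a p-value here covers array-to-array spread, which may be technical.

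Replication starts in G1, when the origin recognition complex, Cdc6 and Cdt1 load the MCM2-7 helicase onto chromatin, a step known as licensing. Cyclin E and the kinase Cdc7 with its partner Dbf4 then bring in Cdc45, Mcm10 and the GINS complex, the helicase opens the DNA, and primase, the replicative polymerases, the sliding clamp Pcna and its loader replication factor C copy both strands. Many of these genes are transcribed by E2F factors once the Rb protein is phosphorylated, and Myc and the cyclins act upstream of that step. After DNA damage, p53 acts through the Cdk inhibitor p21 to restrain cyclin E activity and E2F-dependent transcription.

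Promoter sequence is shown for 4 licensing genes because E2F factors are the textbook regulators of these genes and bind a short word of known letters. RefSeq promoter windows of the GRCm38.p6 build, 250 bases before to 50 bases after each start, were searched on both strands for the 4 words TTTGGCGC, TTTCCCGC, TTTGCCGC and TTTCGCGC, some of which overlap when they face each other. A window was given for 41 of the 49 genes, and 15 of the 41 (36.6%) held a word, against 704 of all 27025 genes with a window (2.6%). The share was not particular to the 49. It was 28.2% (11 of 39) among other replication genes with a window and 31.2% (10 of 32) among other G1/S regulators. Among housekeeping genes it was 7.69% (1 of 13), and among G2/M genes 0 of 31. The words stood before the start in Mcm5, Mcm6, Orc1, Orc3, Cdc6, Gins3 and Pola1, on both sides of it in Mcm7 and Rfc3, and after it in Mcm3, Cdt1, Pold1, Pole2, Lig1 and E2f2. Capitals mark the words in the stretches of 100 bases below, each written along its gene.
Orc1 (chr4:108579354-108579453, plus strand, bases -100 to -1 from the start): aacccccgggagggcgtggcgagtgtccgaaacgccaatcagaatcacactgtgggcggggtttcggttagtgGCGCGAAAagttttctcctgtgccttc
Mcm5 (chr8:75109336-75109435, plus strand, bases -173 to -74 from the start): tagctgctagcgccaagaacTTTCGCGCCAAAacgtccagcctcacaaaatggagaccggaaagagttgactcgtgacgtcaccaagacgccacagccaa
Mcm6 (chr1:128359736-128359835, minus strand, bases -130 to -31 from the start): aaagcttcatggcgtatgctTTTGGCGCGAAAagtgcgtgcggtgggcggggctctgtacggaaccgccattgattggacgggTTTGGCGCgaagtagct
Cdc6 (chr11:98907993-98908092, plus strand, bases -158 to -59 from the start): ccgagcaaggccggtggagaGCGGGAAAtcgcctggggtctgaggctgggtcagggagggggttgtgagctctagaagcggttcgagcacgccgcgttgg
A match is a run of letters and not a measured binding site, and the 26 genes with a window but no match can still be E2F targets. The median log2 difference between 24 h and 0 h was 0.09 for the 15 genes with a word and 0.09 for the 26 without.

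All values are on the deposited log2 scale of robust multi-array averaging (RMA), on which 1 unit is 2-fold. RMA gives every array the same overall distribution of probe intensities, so a change in the total RNA of a cell is not visible, and small changes are compressed. Of the 11 B cell markers measured, 10 had means of 11.02 (Blk) to 13.57 (Cd79b) over the 30 arrays, and none of them was below 10.48 on any array. Ms4a1, which encodes CD20, had a mean of 9.68 and ran from 6.88 to 12.41. The mean over the T and NK cell list was 6.04 to 6.47 and that over the myeloid list 6.37 to 6.84. Feeder RNA varied. The mean of 32 fibroblast markers was 8.06 to 8.62 at 0 h, 8.32 to 9.81 at 24 h and 7.97 to 9.18 at 48 h in the parental line, and 7.86 to 8.45 in the resistant lines. The 5 untreated parental arrays also stood apart from each other. Array 1 had the highest value of its group for 34 of the 49 genes and array 5 the lowest for 29, the mean over the 49 genes ran from 11.16 to 11.49, and array 5 had an interquartile range over all genes of 2.97 against 3.36 to 3.75 on the other 29 arrays. The median SD of the 49 genes was 0.15 at 0 h and 0.08 to 0.11 at the later times. Each comparison with 0 h below rests on these 5 arrays.

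**Figure D1:**
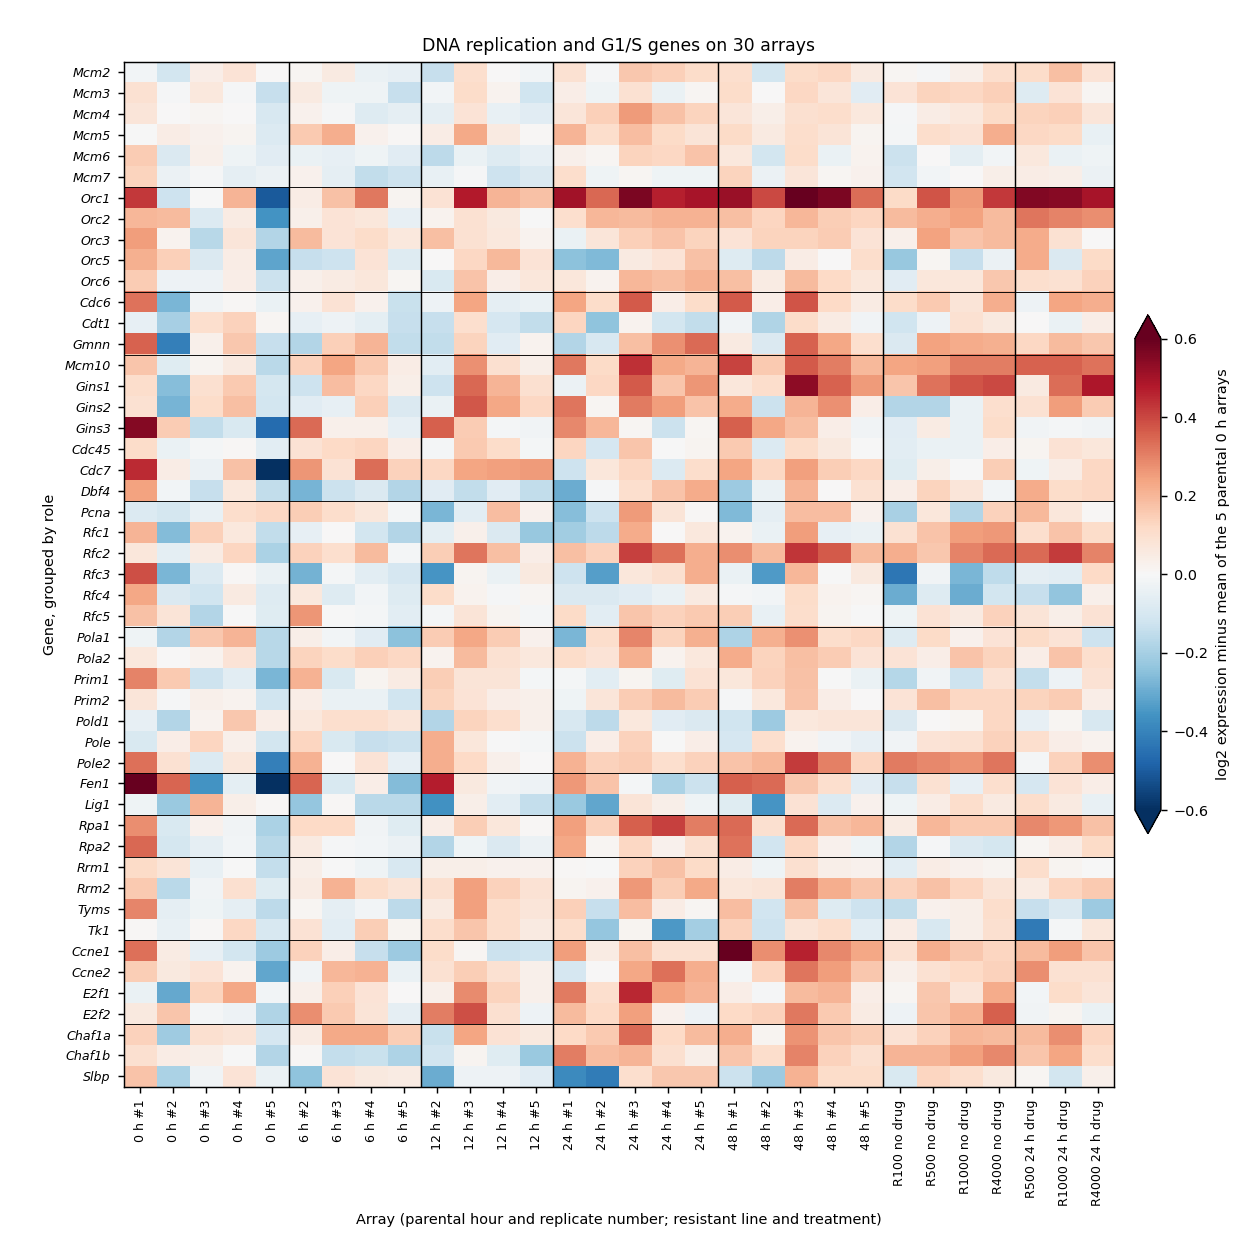
Log2 expression of each of the 49 genes (rows, grouped by role) on each of the 30 arrays (columns), as the difference from the mean of the 5 parental 0 h arrays; colours are clipped at 0.6 either way. The red Orc1 row at 24 and 48 h stands among mostly pale rows, and arrays 1 and 5 of 0 h differ from their own group mean for many genes.

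None of the 49 genes fell below its 0 h level by the test used at any time in the parental line. At 24 h, 4 of the 49 genes were higher than at 0 h (8.16%, against 4.35% of all 19937 genes called higher) and none was lower (against 2.43% of all genes called lower), by limma with Benjamini-Hochberg adjustment over all genes. The 4 were Orc1, Rpa1, Rfc2 and Mcm10, and none of them rose more than 1.39-fold. A fit with the replicate number as a block, given further below, called 10 genes higher (20.4%, against 11.8% of all genes). In the parts by gene that follow, passing refers to the fit without that block unless the block is named. At 24 h 38 of the 49 differences were above 0, where 42.9% of all genes were, with a median of 0.10 against -0.04 over all genes. All 49 genes lay above the median gene in mean level, whereas all genes include those of low level. The shares and medians of all genes, here and below, are therefore not matched for level. Arrays also differed in spread, and whether the contrast follows level or spread was not tested. An unadjusted p under 0.05 was reached by 12 of the 49 (24.5%), all of them higher at 24 h, and by 29.4% of all genes. In these whole-culture samples, a change in the share of cells that express a gene and a change in its RNA per cell cannot be told apart.

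Orc1, the largest subunit of the origin recognition complex and the one whose level follows the cell cycle, changed most. Its log2 values were 9.79, 9.24, 9.36, 9.57 and 8.86 on the 5 arrays at 0 h and 9.87, 9.71, 9.93, 9.83 and 9.86 at 24 h. All but 1 of the 24 h arrays were above every 0 h array, and array 5 of 0 h was the farthest from the rest. The difference was 0.47 ± 0.12 (SE, 1.39-fold, adjusted p = 0.0238, limma). Without array 5 of 0 h it was 0.35 (adjusted p = 0.0572). At 48 h Orc1 stood at 9.88, 9.76, 9.98, 9.93 and 9.70, a difference from 0 h of 0.49 ± 0.12 that did not pass (adjusted p = 0.104), and at 6 h and 12 h it was 9.38 to 9.68 and 9.45 to 9.84. The level at 24 h and 48 h thus lay in a narrow band near the upper end of the 0 h spread.

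The other 4 subunits of the origin recognition complex on the list differed less. Orc2 was higher at 24 h by 0.18, Orc6 by 0.13, Orc3 by 0.10 and Orc5 by -0.04 (adjusted p = 0.125, 0.154, 0.343 and 0.797, limma), and none passed the test. Orc2 ran from 10.90 to 11.46 at 0 h and only from 11.36 to 11.47 at 24 h.

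Of the 6 subunits of the replicative helicase, none passed at any time in the fit without a block. With the replicate number as a block, Mcm4 and Mcm5 passed at 24 h (adjusted p = 0.0217 and 0.0306, limma). None of the 6 was below 0 at 24 h or 48 h. At 24 h the differences from 0 h were 0.10 for Mcm2, 0.02 for Mcm3, 0.16 for Mcm4, 0.14 for Mcm5, 0.09 for Mcm6 and 0.00 for Mcm7, with adjusted p-values from 0.0594 for Mcm4 to 0.96 for Mcm7 (limma). These were among the steadiest values in the series: the 95% interval of Mcm7 was -0.11 to 0.12. Mcm4 ran from 11.98 to 12.15 at 0 h and from 12.15 to 12.33 at 24 h. Mcm5 was 12.52, 12.57, 12.55, 12.54 and 12.44 at 0 h and 12.73, 12.63, 12.71, 12.64 and 12.60 at 24 h. The Mcm5 groups did not overlap, as was so for 2 of the 49 genes in that direction (1.98% of all genes) and for none in the other (2.6%).

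The licensing factors gave no shift that passed. Cdc6, which loads the helicase with the origin recognition complex, ran from 9.78 to 10.38 at 0 h, from 10.09 to 10.42 at 24 h and from 10.09 to 10.43 at 48 h, with differences from 0 h of 0.17 (adjusted p = 0.246) and 0.19 (adjusted p = 0.448). Its partner Cdt1 ran from 11.52 to 11.86 at 0 h and from 11.48 to 11.85 at 24 h (-0.07, adjusted p = 0.543). Gmnn, which encodes the Cdt1 inhibitor geminin, ran from 8.08 to 8.84 at 0 h and from 8.31 to 8.83 at 24 h (0.10, adjusted p = 0.592). The spread of Gmnn at 0 h covered every later parental value.

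Among the 7 genes of helicase activation, all were above 0 at 24 h and at 48 h, and 1 passed at 24 h. Mcm10, which connects the helicase with polymerase alpha, was 11.20, 10.96, 11.05, 11.09 and 10.87 at 0 h and 11.35, 11.15, 11.47, 11.26 and 11.24 at 24 h, a difference of 0.26 ± 0.08 (1.20-fold, adjusted p = 0.0446, limma). At 48 h it was 11.44, 11.19, 11.40, 11.34 and 11.23 (0.29 ± 0.08, adjusted p = 0.147). In each of the later groups only array 2 lay inside the 0 h range. Gins1 and Gins2, subunits of the GINS complex, were at 0.18 and 0.22 at 24 h (adjusted p = 0.242 and 0.141) and at 0.27 and 0.13 at 48 h. The third measured subunit, Gins3, and the helicase cofactor Cdc45 were at 0.07 and 0.04 at 24 h. The firing kinase Cdc7 and its activator Dbf4 were at 0.02 and 0.04, and Cdc7 was the most scattered member of the group at 0 h, where it ran from 8.83 to 9.91.

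Of the clamp and its loader, 1 gene passed. Rfc2, 1 of the subunits of replication factor C, was 10.83, 10.70, 10.81, 10.89 and 10.57 at 0 h, 10.94, 10.90, 11.17, 11.09 and 10.98 at 24 h and 11.04, 10.95, 11.19, 11.13 and 10.95 at 48 h. Neither later group overlapped with 0 h. The difference was 0.26 ± 0.07 at 24 h (1.19-fold, adjusted p = 0.042, limma) and 0.29 ± 0.07 at 48 h (adjusted p = 0.114). The other 4 loader subunits measured had Rfc1 at -0.02, Rfc3 at -0.02, Rfc4 at -0.05 and Rfc5 at 0.10 at 24 h, none of which passed, and the difference between subunits was not tested. Pcna, the sliding clamp and a p53 target as well as an E2F target, ran from 13.57 to 13.80 at 0 h, from 13.42 to 13.93 at 24 h and from 13.41 to 13.86 at 48 h, with a 24 h difference of -0.01 and a 95% interval of -0.22 to 0.19. A second Pcna probe set gave 0.01.

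None of the 7 polymerase and primase genes passed. At 24 h the polymerase alpha subunits Pola1 and Pola2 were at 0.09 and 0.10, the primase subunits Prim1 and Prim2 at -0.01 and 0.11, the polymerase delta subunit Pold1 at -0.07, and the polymerase epsilon subunits Pole and Pole2 at 0.02 and 0.15. At 48 h Pole2 reached 0.25 (95% interval 0.05 to 0.44, adjusted p = 0.357, limma). Fen1 and Lig1, the nuclease and the ligase that finish Okazaki fragments, were at 0.02 and -0.09 at 24 h. Fen1 was the least steady of the 49 at 0 h, with 11.11, 10.79, 10.08, 10.38 and 9.84, which leaves a 95% interval of -0.36 to 0.39.

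Rpa1, the large subunit of the complex that coats single-stranded DNA at forks and at repair sites, was 11.60, 11.23, 11.35, 11.30 and 11.13 at 0 h and 11.57, 11.46, 11.68, 11.73 and 11.63 at 24 h. The difference was 0.29 ± 0.08 (1.22-fold, adjusted p = 0.0304, limma). Array 1 of 0 h lay within the 24 h range, and the others lay below it. At 48 h the difference was 0.23 (adjusted p = 0.286). Its partner Rpa2 was at 0.10 at 24 h (adjusted p = 0.438).

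The genes of deoxynucleotide supply did not pass. Rrm2, the cell cycle regulated subunit of ribonucleotide reductase, ran from 12.86 to 13.18 at 0 h, from 13.04 to 13.28 at 24 h and from 13.09 to 13.33 at 48 h (0.13 and 0.16, adjusted p = 0.202 and 0.382, limma). The large subunit Rrm1 was at 0.08 and thymidylate synthase Tyms at 0.05 at 24 h. Thymidine kinase Tk1 had the lowest 24 h difference of the 49, -0.13 (95% interval -0.29 to 0.03). Its values were 11.06, 11.12, 11.06 and 11.01 at 12 h and 11.06, 10.72, 10.97, 10.61 and 10.75 at 24 h, a difference of -0.24 (adjusted p = 0.222), and a second Tk1 probe set gave -0.20 at 24 h against 0 h. Arrays 2, 4 and 5 of 24 h lay below every 12 h array, as did array 3 by a little, and array 1 did not.

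The 4 cyclin E and E2F genes were all above 0 at 24 h and at 48 h. None passed in the fit without a block. With the replicate number as a block, E2f1 passed at 24 h (adjusted p = 0.00539, limma). E2f1 was 10.84, 10.57, 11.01, 11.11 and 10.86 at 0 h and 11.19, 10.98, 11.33, 11.12 and 11.08 at 24 h (0.26 ± 0.09, adjusted p = 0.0635, limma), and it was at 0.09 at 48 h. Without array 4 of 0 h the difference was 0.32 (adjusted p = 0.0224). E2f2 ran from 11.35 to 11.70 at 0 h and from 11.50 to 11.78 at 24 h (0.11, adjusted p = 0.373). Ccne1, one of the cyclins E, ran from 11.13 to 11.68 at 0 h and from 11.40 to 11.60 at 24 h, and stood at 11.95, 11.63, 11.81, 11.64 and 11.58 at 48 h. That 48 h difference, 0.37 ± 0.09 (adjusted p = 0.114), was the second largest of the 49 at that time, after Orc1. Ccne2 was at 0.14 at 24 h and 0.17 at 48 h (adjusted p = 0.314 and 0.455). Of the chromatin assembly genes, Chaf1a and Chaf1b, subunits of the complex that places histones on new DNA, were at 0.18 and 0.17 at 24 h (adjusted p = 0.125 and 0.111), and Slbp, which binds histone mRNA, was at -0.07. A second Slbp probe set gave 0.02 at 24 h.

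**Figure D2:**
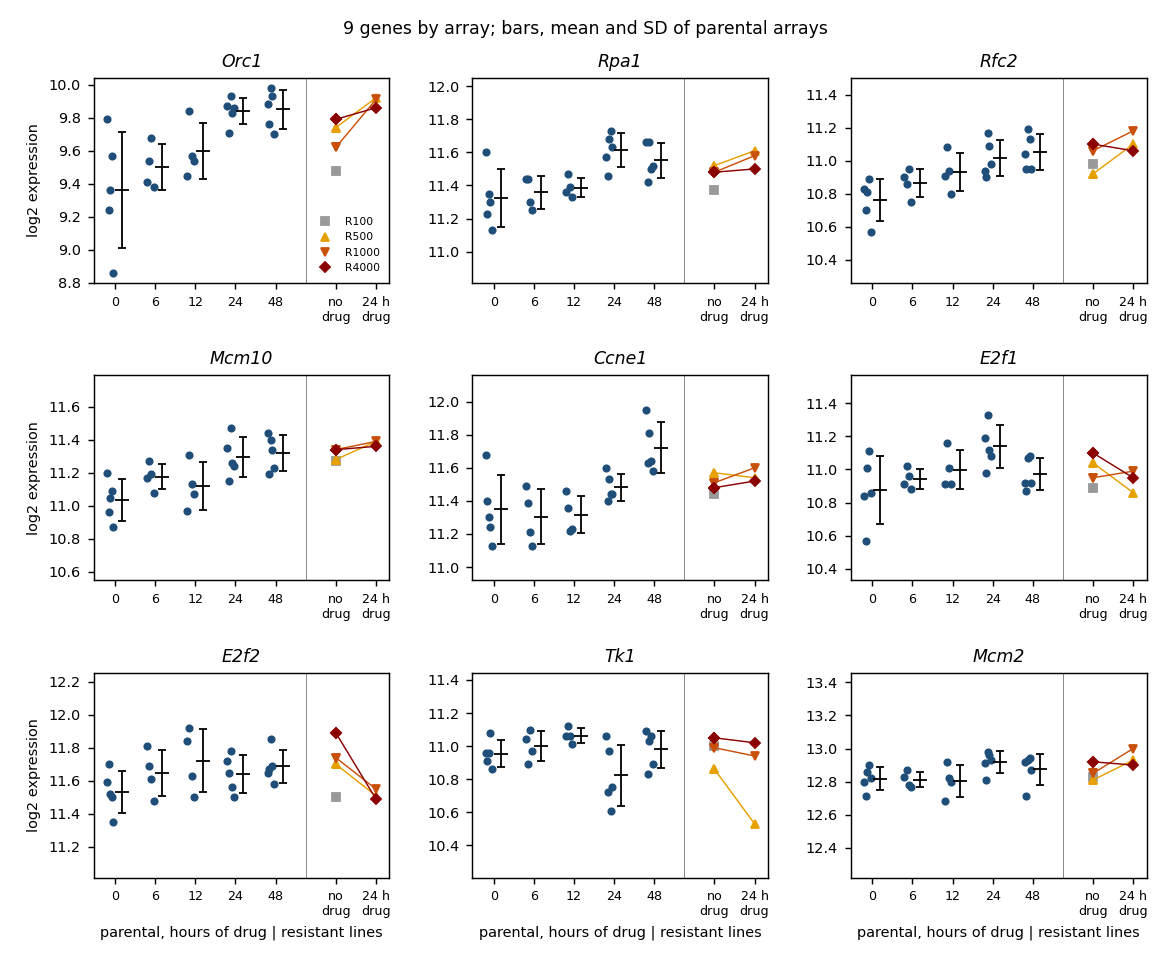
Log2 expression of 9 genes on each array, against hours of mafosfamide in the parental line (circles, with mean and SD) and without or with 24 h of drug in the resistant lines (1 array each, the same line joined). Orc1, Rfc2 and Mcm10 sat higher at 24 and 48 h than on most 0 h arrays, Ccne1 at 48 h had its highest parental mean, and E2f2 was lower in each treated resistant line.

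Same-numbered parental arrays of 0 h and 24 h deviated together from their group means (r = 0.13 to 0.34 over all genes), so the number was also used as a block. In that fit 10 of the 49 genes rose at 24 h (20.4%, against 11.8% of all genes called higher) and none fell (against 11.9% called lower). With the number in the titles, which differs at 6 h and 12 h, as the block there were 6 (12.2%), with 13.7% of all genes called in either direction. Beside Orc1, Mcm10, Rfc2 and Rpa1 they included E2f1 (adjusted p = 0.0449, limma). With the description number, beside Orc1, Mcm10, Rfc2 and Rpa1 they were Mcm4, Mcm5, Gins2, E2f1, Chaf1a and Chaf1b, with blocked adjusted p-values of 0.0017 for Mcm10, 0.00224 for Orc1, 0.00539 for E2f1 and 0.0306 for Mcm5 (limma). Mcm2, Mcm5, Orc1, Mcm10, Gins2, Rfc2, E2f1 and Chaf1b were higher in 5 of 5 pairs and Lig1 was lower in 5 of 5, where 9.07% of all genes were higher and 11.6% lower in every pair. The pairs did not move alike. In pair 1, 35 of the 49 genes were lower at 24 h and the median difference was -0.10, whereas in pairs 3 and 5, 47 and 44 genes were higher with medians of 0.18 and 0.26. Pairs 2 and 4 both had a median of 0.05.

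The 4 calls at 24 h were sensitive to single arrays. Without array 3 or without array 5 of 0 h none of the 49 genes passed. Without array 2 of 0 h, array 3 of 24 h or array 4 of 24 h there was 1. Leaving out array 1 or 5 of 24 h, array 3 of 6 h, array 4 of 12 h or array 4 of 48 h left 2. Without array 1 of 0 h there were 6 (12.2% of all genes were then called). Without arrays 1 and 5 of 0 h together there were 2, Orc1 and Rpa1, with 2.77% of all genes called against 6.78% in the main fit. The share of all genes called thus moved with the arrays too. A fall in calls is therefore not shown to be particular to the 49 genes. Over 34 alternative fits the adjusted p ran from 0.00224 to 0.146 for Orc1, which lost its call in 4, from 0.00451 to 0.167 for Rpa1, which lost it in 7, from 0.003 to 0.172 for Rfc2, which lost it in 14, and from 0.0017 to 0.171 for Mcm10, which lost it in 18 (limma). For E2f1 it ran from 0.00539 to 0.219, with a call in 3. Fibroblast markers moved with the same comparison: 15 of the 32 were called higher at 24 h, with a median difference of 0.84. Across the 23 parental arrays, after each time's mean was taken out, the correlation of the 49 genes with the fibroblast mean had a median of -0.31 and ran from -0.64 for Mcm4 to 0.20 for Fen1, where the median over all genes was -0.06. Array 3 had the lowest fibroblast mean and the highest mean over the 49 genes of its group at 12 h (8.04 and 11.45), at 24 h (8.32 and 11.50) and at 48 h (7.97 and 11.53). At 0 h the order was another: array 2, with the lowest fibroblast mean (8.06), had the second lowest mean over the 49 genes (11.26), and at 6 h array 3, with the lowest (7.93), was at 11.36 in a range of 11.26 to 11.37. With the fibroblast mean in the model, 3 of the 49 genes were called at 24 h (2.39% of all genes were). Rpa1 and Rfc2 kept their calls, and the other was a gene not called without it. The differences of Orc1 and Mcm10 were 0.55 and 0.35 and did not pass (adjusted p = 0.0697 and 0.065, limma).

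**Figure D3:**
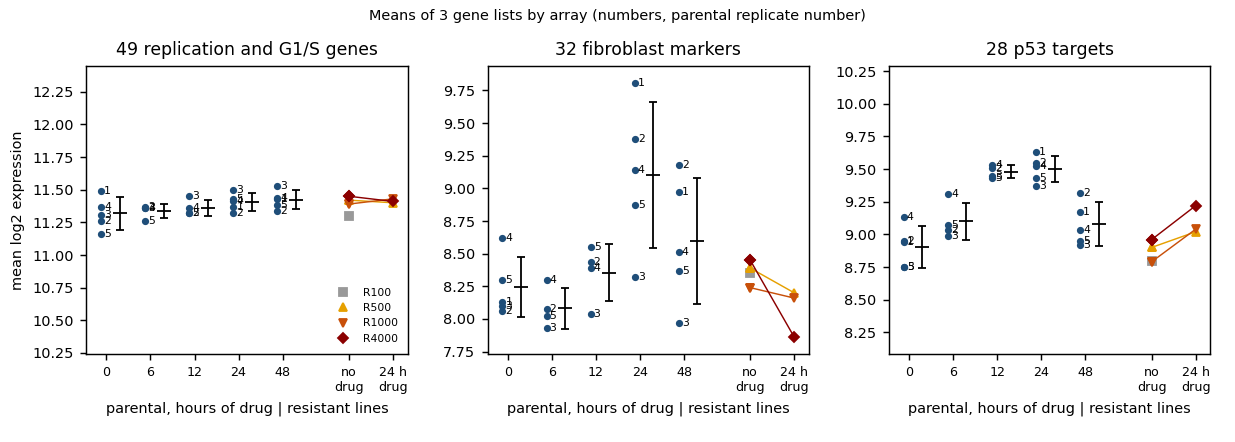
Mean log2 expression of the 49 genes, of 32 fibroblast markers and of 28 p53 targets on each array (numbers give the parental replicate number; bars, mean and SD) on axes of equal span. The mean of the 49 genes stayed between 11.16 and 11.53 in the parental line while the other lists moved over a wider range.

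The earlier hours held no call among the 49 genes. At 6 h none was called (0.01% of all genes were called higher and 0.01% lower), 1, Pola2, had an unadjusted p under 0.05 (2.04%, against 5.13% of all genes), and the largest differences were Cdc7 at 0.21 and Dbf4 at -0.17. At 12 h none was called (0.466% of all genes higher, 0.0451% lower), 2 had an unadjusted p under 0.05, Rfc2 and E2f2 (4.08%, against 11.9%), and the largest differences were Orc1 at 0.24, Cdc7 at 0.22 and E2f2 at 0.19. Every 95% interval at 6 h and 12 h lay within 1.5-fold of no change, with a farthest bound of 0.51.

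Between 12 h and 24 h no gene was called (0.0251% of all genes higher, 0.01% lower), and 6 had an unadjusted p under 0.05 (12.2%, against 10.3% of all genes). Chaf1b was 10.85, 10.98, 10.89 and 10.74 at 12 h and 11.27, 11.15, 11.17, 11.06 and 11.00 at 24 h, so the groups did not overlap (0.26 ± 0.07, adjusted p = 0.14, limma). With the replicate number as a block, Chaf1b was the 1 gene called (0.24, adjusted p = 0.0267, against 1.37% of all genes higher and 0.933% lower). Mcm6, Orc2 and Rpa2 also lay wholly higher at 24 h than at 12 h and Cdc7 wholly lower, none of them called (1.94% of all genes lay wholly higher and 2.98% wholly lower). At 48 h against 0 h, 43 of the 49 genes were above 0 (43.9% of all genes were) and none was called (0.11% of all genes higher, 0.14% lower), with 12 at an unadjusted p under 0.05, all higher (24.5%, against 11.7% of all genes). Without array 1 of 0 h, 4 were called at 48 h, Orc1, Ccne1, Mcm10 and Rpa1 (adjusted p = 0.0126, 0.015, 0.0456 and 0.0395, limma), with 1.1% of all genes. With the description number as a block, 5 were called at 48 h, Ccne1, Mcm10, Rfc2, Orc1 and Gins1, with 3.28% of all genes. Between 0 h and 48 h the deviations of pairs 1 to 5 correlated at 0.28, 0.26, 0.06, 0.38 and 0.61. The fit without a block was kept there because pair 3 was under 0.1, although the other pairs were not. The absence of a call at 48 h thus depends on that choice. The 24 h and 48 h differences share the 0 h arrays, so their like signs are not separate evidence. From 24 h to 48 h none was called (0.0251% of all genes higher, 0.0803% lower), 1 had an unadjusted p under 0.05 (2.04%, against 6.77% of all genes), and the largest difference was Ccne1 at 0.24.

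**Figure D4:**
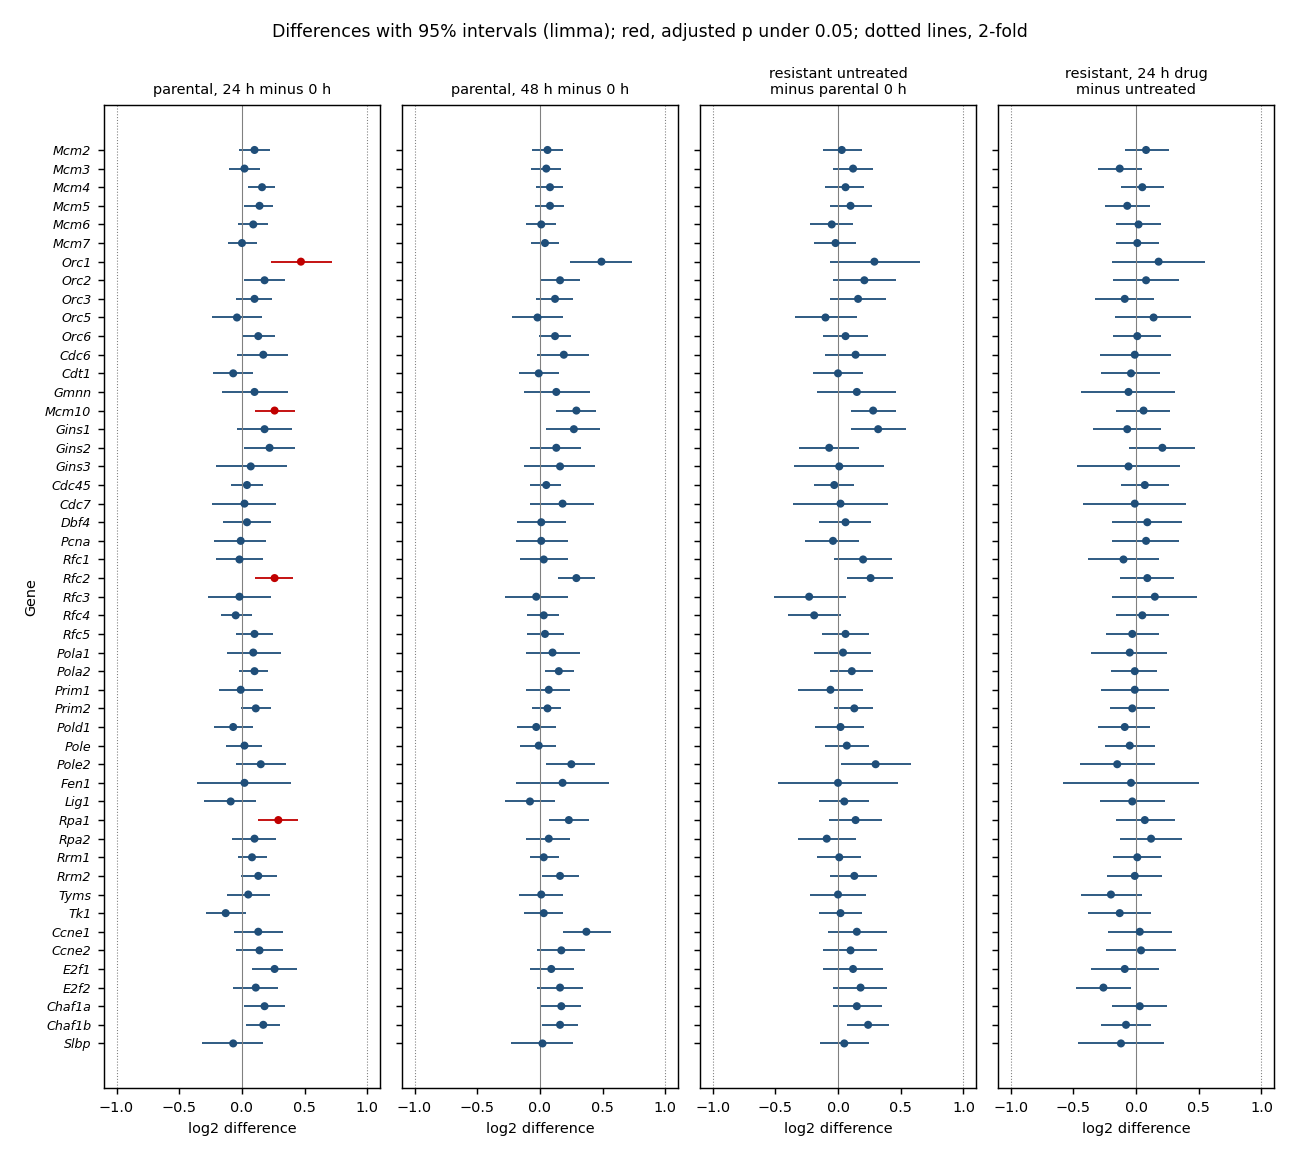
Log2 difference with its 95% interval (limma) for each of the 49 genes in 4 comparisons; red marks an adjusted p under 0.05 and dotted lines mark 2-fold. Every interval lay inside the 2-fold lines, and the only red genes were Orc1, Mcm10, Rfc2 and Rpa1 at 24 h.

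The intervals set the size of change on the RMA scale that array-to-array spread leaves room for. They do not cover the compression of small changes by RMA or the varying feeder RNA. In each of the comparisons drawn, and in the rest of those made, the 95% interval of all 49 genes lay within 2-fold of no change. At 24 h and 48 h, 48 of the 49 lay within 1.5-fold, the exception being Orc1 with upper bounds of 0.72 and 0.73. The intervals reached a median of 0.16 to either side of the estimate at both times.

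Untreated resistant cells were compared with the 5 untreated parental arrays to ask whether replication genes had shifted with acquired resistance, with the line as the unit since each has 1 array. The lines are successive samples of 1 selection. The p-values and intervals here and below therefore do not cover the spread between independent selections. None of the 49 genes was called (0.0201% of all genes higher, 0.0552% lower), and 5 had an unadjusted p under 0.05 (10.2%, against 7.1% of all genes). Of the 49 differences 39 were above 0, where 48% of all genes were, with a median of 0.06. Gins1 was 10.79, 10.95, 11.00 and 11.02 in R100, R500, R1000 and R4000 and 10.73, 10.37, 10.72, 10.78 and 10.52 on the parental arrays. The resistant lines all lay above the parental arrays, by a mean of 0.32 (95% interval 0.10 to 0.54, adjusted p = 0.456, limma). Mcm10 was 11.27, 11.28, 11.34 and 11.34 in the same order of lines, above the 0 h values given earlier (0.28, adjusted p = 0.403). Rfc2, Chaf1b and Prim2 were the other genes with no overlap, at 0.26, 0.24 and 0.13, which made 5 of the 49 higher (10.2%, against 2.32% of all genes) and none lower (1.33% of all genes). Pole2 and Orc1 were at 0.30 and 0.29 with overlap, and Orc1 was 9.48, 9.74, 9.62 and 9.79. The lowest differences were those of the loader subunits Rfc3 and Rfc4, at -0.23 and -0.19.

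Mcm2 to Mcm7 differed between resistant and parental cells by -0.05 (Mcm6) to 0.12 (Mcm3), Pcna by -0.04, Cdc6 by 0.14, Cdt1 by 0.00, Gmnn by 0.15, Rrm2 by 0.13, Ccne1 by 0.15, Ccne2 by 0.10, E2f1 by 0.12 and E2f2 by 0.18. None of these passed. Within the selection, E2f2 was 11.50 in R100, 11.70 in R500, 11.74 in R1000 and 11.89 in R4000, and R4000 lay above the highest parental 0 h array at 11.70. A slope over the order parental, R100, R500, R1000, R4000 called none of the 49 genes and none of the 19937 (percent called 0 in both directions), with 5 of the 49 at an unadjusted p under 0.05 (10.2%, against 4.36% of all genes) and 43 slopes above 0 (47.1% of all genes). Gins1 had the steepest slope, 0.11 per step (adjusted p = 0.881). R100 gave the lowest value of the 4 lines for Orc1, Gmnn, Pcna and Rfc3 among others, and its mean over the 49 genes was 11.30 against 11.39 to 11.45 in the later lines. Its 1 untreated array also had a narrower interquartile range over all genes, 3.36 against 3.54 to 3.65 in the later untreated lines. A change along the selection and a difference between single arrays cannot be told apart here.

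The drug response of the resistant lines was read within each line, 24 h in 750 nM against untreated. None of the 49 genes was called (0.0251% of all genes higher, 0.00502% lower), and 1, E2f2, had an unadjusted p under 0.05 (2.04%, against 2.9% of all genes). In these lines 22 of the 49 differences were above 0, where 43.2% of all genes were, with a median of -0.01. E2f2 went from 11.70 to 11.51 in R500, from 11.74 to 11.55 in R1000 and from 11.89 to 11.49 in R4000, a fitted difference of -0.26 ± 0.10 (95% interval -0.48 to -0.04, adjusted p = 1, limma). Tyms was likewise lower in each line, by -0.16, -0.11 and -0.32, and Tk1 went from 10.86 to 10.53 in R500 but moved by only -0.04 and -0.02 in R1000 and R4000. Orc1 was higher in each line, by 0.18, 0.29 and 0.07, and Gins2 by 0.27, 0.29 and 0.06. Over the list, 9 genes were higher in 3 of 3 lines and 12 lower, against 14.5% and 21.5% of all genes. Groups without overlap were treated higher for Orc1, Orc2, Mcm10 and Rpa2 and treated lower for Mcm3, Gmnn, Rfc1, Tyms, E2f2 and Slbp, where 6.92% and 11.4% of all genes were separated so. No gene moved by more than 0.40 in any line. R500 and R1000 had 23 and 30 of the 49 genes higher, and R4000 had 14.

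The response of the resistant lines was then set against that of the parental line at 24 h by the difference of their responses. None of the 49 genes was called, nor any of the 19937 (percent called 0 in both directions), so no response was shown to differ, and 2 of the 49 had an unadjusted p under 0.05 (4.08%, against 7.83% of all genes). Of the 49 differences in response 11 were above 0, where 53.1% of all genes were, and the median was -0.10. The largest were E2f2 at -0.37 (95% interval -0.65 to -0.09, adjusted p = 0.454) and E2f1 at -0.36 (95% interval -0.70 to -0.01, adjusted p = 0.615, limma). E2f1 went from 11.04 to 10.86 in R500, from 10.95 to 10.99 in R1000 and from 11.10 to 10.95 in R4000, while the parental values given earlier were higher at 24 h. Orc1 differed in response by -0.29, with an interval from -0.76 to 0.17. These intervals were the widest of the comparisons, reaching a median of 0.31 to either side, and 40 of the 49 lay within 1.5-fold.

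After 24 h of drug, treated resistant cells were set beside treated parental cells. None was called (0.0803% of all genes higher, 0.567% lower), 2 had an unadjusted p under 0.05 (4.08%, against 14.8% of all genes), 27 were above 0 (57.9% of all genes), and every 95% interval lay within 1.5-fold with a farthest bound of 0.40. E2f1 was 10.86, 10.99 and 10.95 in R500, R1000 and R4000 against 10.98 to 11.33 in the parental line (-0.20, adjusted p = 0.287, limma). Tyms was 10.95, 11.00 and 10.87 against 10.95 to 11.27 (-0.20, adjusted p = 0.311). Orc1 was 9.92, 9.91 and 9.86, inside the parental 24 h range of 9.71 to 9.93. Fibroblast means of these treated resistant arrays were 7.86 to 8.20, below each parental 24 h array. With the fibroblast mean in the model none of the 49 genes was called either, and the small differences of Rfc1, Lig1, Orc5 and Gins1 changed sign.

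Most other genes of the pathway were not called at 24 h, as was so for most of all genes. Of all genes, 4.35% were called higher then and 2.43% lower. Of 48 other replication genes measured, 1 was called higher at 24 h and none lower, with 34 above 0 and a median of 0.05. It was Hells, a chromatin remodeller of the SNF2 family, at 11.01 ± 0.20 (SD, n = 5) at 0 h and 11.52 ± 0.24 (n = 5) at 24 h (0.51, adjusted p = 0.00589, limma). Of 40 other G1/S regulators, 2 rose and 1 fell. The D-type cyclin Ccnd2, which activates the kinases that phosphorylate Rb, went from 10.30 ± 0.59 (SD, n = 5) to 11.34 ± 0.22 (n = 5), a difference of 1.04 (adjusted p = 0.00962). With the fibroblast mean in the model it was 0.46 (adjusted p = 0.299). Ccnd3 rose by 0.39 (adjusted p = 0.0129), and Cdkn1b, which encodes the inhibitor p27, fell by 0.39 (adjusted p = 0.00423), and both passed with the fibroblast mean in the model as well. In the treated resistant lines Ccnd2 stood at 9.95, 10.01 and 9.86, a log2 difference of -1.4 from treated parental cells (adjusted p = 0.00258). At the other times 1 of the 40 regulators was called, Rbl2 at 12 h (0.50, adjusted p = 0.0268, limma), a relative of Rb. Of all genes, 0.466% were called higher at 12 h. Among 28 p53 targets 13 were higher and 1 lower at 24 h, with a median of 0.44, and of 35 G2/M genes 1 was higher and 1 lower, with a median of 0.02.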

How the data were processed

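Gene expression was measured on Affymetrix Mouse Gene ST arrays, 1 per sample. Per the labels, the authors summarised the probe intensities with RMA in the affy package and deposited 1 table of normalized log2 expression values, with mm9 as the genome build. RMA equalises array distributions, and array number, not depth, limits precision.

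From these values, 1 probe set was kept per gene (21640 of 34760 probe sets carried 1 symbol, 1321 several and 11799 none here; 954 genes had several probe sets, of which the one with the highest mean was kept). Pcna, Tk1 and Slbp had a second probe set. All 49 genes matched RefSeq by Entrez identifier. Differences were tested in limma 3.58.1 (R 4.3.3; lmFit, eBayes) over all 19937 genes with Benjamini-Hochberg adjustment at 0.05, two-sided, and each p-value in the text comes from that model, or from the same model with the change named beside it (a block, a covariate or an array left out). Parental times were fitted on all 23 parental arrays; resistant untreated lines with the 0 h arrays; the drug response with a term for each line over 16 arrays (parental 0 h and 24 h, and R500, R1000 and R4000 in both states). The statistical code was tested on simulated data.

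Members and lists were chosen with earlier results of these data known. Genes are named by a rule: called members and the 8 largest differences per comparison, the MCM2-7, Pcna, Cdc6, Cdt1, Gmnn, Rrm2, cyclin E and E2F genes whatever their change, and up to 5 called genes of each other list; the remaining members are accounted for by their differences.

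Replicate numbers come from the sample descriptions; the titles number the 6 h and 12 h arrays differently. Deviations of same-numbered arrays correlated above 0.1 in every pair for 24 h against 0 h (0.13 to 0.34) and for 24 h against 12 h. For 48 h against 0 h, pair 3 gave 0.06 and the other pairs 0.26 to 0.61. The alternatives tried were median and housekeeping centring, array weights, an intensity trend, a filter on low values, all probe sets, both numberings as a block, pairwise fits, a fibroblast covariate and leaving out each array.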

Additional observations from a re-analysis of the deposited data

Results flagged for a closer look

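Of 130 sets of 4 or 5 parental arrays looked at, 6 held 1 value far from the others (4.62%), where chance gives about 5%. Cdc7 was at 9.59 on array 2 of 12 h, with the others at 9.70 to 9.72. Cdc6 was at 10.29 on array 3 of 12 h, above 10 to 10.02 on the others. Gins2 was at 10.38 on array 4 of 6 h, above 10.15 to 10.19. Orc2 was at 11.36 on array 1 of 24 h, below 11.45 to 11.47. Rfc1 was at 11.25 on array 3 of 48 h, above 10.95 to 11.02. The mean over the 49 genes was 11.26 on array 5 of 6 h, below 11.36 to 11.37.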

How the results depend on the processing

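The number of the 49 genes called at 24 h against 0 h, 4 with 6.78% of all genes, was 1 after median centring (2.04%, with 9.11% of all genes called), 2 with array weights (4.08%, with 5.01%), 10 with the replicate number from the descriptions as a block (20.4%, with 23.6%), 6 with the number from the titles (12.2%, with 13.7%), 0 when only the 10 arrays of both times were fitted (with 0.612%), and 2 without arrays 1 and 5 of 0 h (4.08%, with 2.77%; an alternative chosen after seeing the data). It ran from 0 (without array 3 or array 5 of 0 h) to 6 (without array 1 of 0 h) when 1 array was left out. At 48 h against 0 h none was called, but 1 was with array weights, with the fibroblast covariate and without arrays 1 and 5 of 0 h (0.361%, 0.657% and 0.216% of all genes), 5 with the description number as a block (Ccne1, Mcm10, Rfc2, Orc1 and Gins1, blocked adjusted p = 0.00177, 0.00302, 0.00415, 0.00641 and 0.0317, limma; 3.28% of all genes), 3 with the title number (Ccne1, Orc1 and Rfc2; 0.988% of all genes), and 0 to 4 when 1 array was left out (4 without array 1 of 0 h). Between 12 h and 24 h array weights gave 7 calls (9.01% of all genes) and either block 1 (2.3% by description and 0.893% by title), and between 24 h and 48 h array weights gave 2 (4.08%, with 3.51% of all genes). In the other comparisons no setting gave a call, and the replicate block changed no call at 6 h, at 12 h or between 24 h and 48 h. The 64 named gene differences were read 1656 times in the alternative fits, several genes from each fit, so the readings are not separate. Of these readings 1587 kept their direction and side of the threshold, 43 lost a call, 21 gained one and 5 turned. Against parental 24 h, Orc5 in treated resistant cells became -0.01 with array weights. With the fibroblast covariate Rfc1, Lig1, Orc5 and Gins1 became -0.15, -0.09, -0.14 and -0.20. The causes were not tested. Differences of under about 0.2 are within the interval of a typical member.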
